A study of Rattus norvegicus with 5 samples.

Results

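The 6 genes described here encode the kainate receptor subunits, Grik1 to Grik5, and the delta receptor subunit encoded by Grid1. They were taken by name, as every region that the authors' annotation places in one of these genes, its promoter or the 2 kb on either side. They are 6 of 20949 named protein-coding rat genes of the reference used for gene names. They held 115 of 121816 enriched regions (peaks) in neural stem cells (NSCs), 115 of 137579 in Neurons and 110 of 116091 in Astrocytes.

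Kainate receptors are ion channels opened by glutamate, built from 4 subunits, and act on both sides of the synapse. The products of Grik1, Grik2 and Grik3 form channels alone or together, while those of Grik4 and Grik5 bind kainate with high affinity and need one of the former to reach the surface as working channels. In the hippocampus they are known above all from the mossy fibre synapses onto CA3 pyramidal neurons. The product of Grid1 belongs to the same superfamily by sequence but is not opened by glutamate in the usual way. It binds secreted cerebellins, which in turn bind presynaptic neurexins, and so helps to organise synapses. N6-methyladenine (6mA) is a methylated DNA base that is common in bacteria, and its abundance in mammalian DNA is debated.

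Sonicated and denatured genomic DNA was enriched with an antibody against 6mA and sequenced, with 1 library each for NSCs, Neurons and Astrocytes. The NSCs are the SCR022 line, sold as adult rat hippocampal neural stem cells, and the labels name no treatment, strain, age or origin for Neurons and Astrocytes. Sequencing gave 15760246 reads for the enriched NSC library, 16095308 for that of Neurons and 15767015 for that of Astrocytes, and 27936774 and 22329441 for the inputs of NSCs and Neurons. With 1 library per cell type no difference between cell types could be tested, RNA was not measured, and the labelled cell types could not be checked against markers. Enrichment by the antibody is what was measured, and the presence of the base itself in a region was not tested.

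The share of all genes with a promoter peak was not counted. One gene of the set, Grik1, had a peak at its promoter, so its promoter sequence is shown. The peak covered chr11:28213897-28214283 in NSCs, with an authors' fold over input of 8.42, and chr11:28213812-28214291 in Astrocytes, with a fold of 17.8. Both lay in the classes promoter, upstream 2 kb and exon, no peak of Neurons overlapped them, and no comparison between cell types listed the region. The scores were 57.2 and 104, where a score is 10 times the −log10 p of the authors' peak caller and 50 is the lowest in the lists. The RefSeq window of 250 bases before the start of Grik1 lies at chr11:41056504-41056753 on the minus strand of GRCr8. No source used here gives the genome build of the peaks, so the peak was not placed on these bases. Capitals mark the words CAGGC and CAGGT and GAGGC and GAGGT, a pattern reported around 6mA in human DNA, searched on both strands:
Grik1 promoter: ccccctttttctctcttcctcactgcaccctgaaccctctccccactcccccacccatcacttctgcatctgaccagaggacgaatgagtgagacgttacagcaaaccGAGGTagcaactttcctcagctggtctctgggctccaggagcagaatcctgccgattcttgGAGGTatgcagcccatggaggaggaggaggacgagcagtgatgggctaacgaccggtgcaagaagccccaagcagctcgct

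The window held 2 of these words, 8 CpG and 57.6% G and C. Over all 33469 RefSeq promoter windows of this length the medians were 3 words, 5 CpG and 51.2% G and C, and 90.7% held at least 1 word, so a match is the usual case. The windows of Grik2, Grik3, Grik4 and Grik5, which had no promoter peak, held 2, 1, 2 and 3 words. Their G and C content was 49.6% for Grik2, 81.6% for Grik3, 43.2% for Grik4 and 70.8% for Grik5. A match of letters is a description and does not show a methylated base.

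All 6 genes had at least 1 peak in each cell type. Among all named protein-coding genes 45.6% had a peak in NSCs, 49.1% in Neurons and 45.8% in Astrocytes. Long genes have more room for peaks, and 5 of the 6 genes span at least 100 kb. Of the 2506 genes of that length, 91.3% had a peak in NSCs, 91.9% in Neurons and 91.2% in Astrocytes, so a peak in each of the 5 is close to what long genes show.

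The number of peaks followed the length of the gene only in part. Grid1, on chromosome 16 and 749 kb long, had 32 peaks in NSCs, 39 in Neurons and 34 in Astrocytes. Grik2, on chromosome 20 and 698 kb long, had 36, 26 and 25 in the same order. Grik4, on chromosome 8 and 427 kb long, had 21, 23 and 21, and Grik1, on chromosome 11 and 401 kb long, had 18 in each. Grik3, on chromosome 5 and 216 kb long, had 5, 4 and 7, and Grik5, on chromosome 1 and only 62.0 kb long, had 3, 5 and 5.

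Per 100 kb of gene, Grik5 was the densest in Neurons and Astrocytes with 8.06 peaks in each, and Grik3 the sparsest by this length in every cell type with 2.31 in NSCs, 1.85 in Neurons and 3.23 in Astrocytes. Genes of at least 100 kb had a median of 3.21 peaks per 100 kb in NSCs, 3.79 in Neurons and 3.17 in Astrocytes, and quartiles of 1.67 and 4.98 in NSCs. Grik1 stood at 4.49 in each cell type, between these quartiles. Grik2 was above the upper quartile in NSCs with 5.16 and near the median in Neurons with 3.73 and in Astrocytes with 3.58. Grik4 had 4.92, 5.39 and 4.92 and Grid1 4.27, 5.21 and 4.54, in the order NSCs, Neurons and Astrocytes. Lengths come from GRCr8, and some genes have peaks over only part of that length. The peaks of Grik4 span 292 kb, which would raise its density to 7.20, 7.89 and 7.20. Those of Grik3 span 109 kb, which gives 4.58, 3.67 and 6.42, and by extent Grid1 is sparser than Grik3 in NSCs (4.31) and Grik2 is the sparsest in Astrocytes (3.54).

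**Figure D1:**
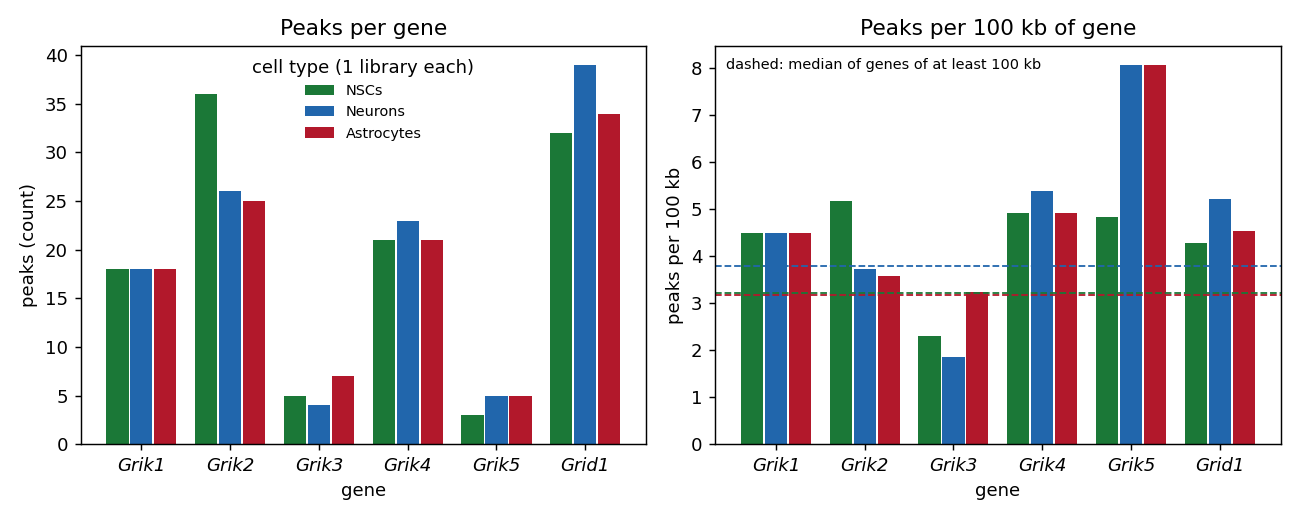
Peaks per gene (left, count) and per 100 kb of gene (right) for the 6 receptor genes in NSCs, Neurons and Astrocytes, 1 library each and so without error bars, with dashed lines for the median of genes of at least 100 kb. Grik2 stands highest in NSCs with 36 peaks, and Grik5 is the densest gene in Neurons and Astrocytes at 8.06 per 100 kb.

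The peaks lay almost wholly in introns. Of the member peaks, 112 of 115 in NSCs (97.4%, exact 95% binomial interval 92.6% to 99.5%), 109 of 115 in Neurons (94.8%, 89.0% to 98.1%) and 106 of 110 in Astrocytes (96.4%, 91.0% to 99.0%) were in an intron and in no promoter, exon or 2 kb flank of any gene. Counting only the classes of the receptor gene itself, 113, 111 and 107 were in an intron alone, since a few peaks lay in a class of an overlapping or neighbouring gene as well. Over all peaks in any gene class the shares were 81.0%, 80.2% and 80.9%. Those peaks include short genes, while 5 of the 6 members span at least 100 kb. The share within genes of that length was not counted, so an effect of length was not tested. The intervals cover counting error only, and neighbouring peaks of a gene are not independent. No member peak lay in a CpG island or its shore, while 1.85%, 2.16% and 1.95% of all gene peaks did. A count of 0 allows a share of up to about 2.61% in NSCs and Neurons and 2.73% in Astrocytes. These limits are 3 over the number of peaks, an approximation and not the exact interval used for the other shares.

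By the classes of the receptor genes themselves, the peaks outside introns were 2 in NSCs, 4 in Neurons and 3 in Astrocytes, the promoter peaks of Grik1 among them. Downstream of Grik1, NSCs had a peak at chr11:27826043-27826864 with a fold of 15.04 and Neurons one at chr11:27826190-27826673 with a fold of 11.2, and Astrocytes had none. That site was listed as higher in NSCs than Astrocytes, with a fold of 10.1, and higher in Neurons than Astrocytes, with a fold of 12.2. Downstream of Grik3 the peaks were in Neurons (17.8-fold over input) and Astrocytes (11.8), and downstream of Grid1 likewise (9.63 and 10.9), with none in NSCs at either place. Neurons alone had a peak over an exon and intron of Grik5, chr1:81939867-81940377, with a fold of 8.40, listed as 5.61-fold higher in Neurons than Astrocytes.

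Among the subunits that form channels alone, Grik1 had modest peaks. Its highest fold in NSCs was 34.2 at chr11:27868823-27869387, where Neurons had 38.6 and Astrocytes 13.0, and no comparison listed the site. In Neurons the same fold of 38.6 was reached at chr11:28188501-28189280, where NSCs had 22.6 and Astrocytes 15.6, and which was listed as 6.19-fold higher in Neurons than NSCs. In Astrocytes the highest fold was 36.9 at chr11:28108777-28109433, where NSCs had 18.8 and Neurons 28.4. That site was listed as 6.12-fold higher in Neurons than NSCs. The folds over input come from separate lists with separate inputs, so they are set side by side and not compared, and the direction between cell types is taken from the authors' comparison lists. No peak of Grik1 or Grik2 reached a score of 1000 in any cell type.

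Grik2, a principal subunit of many brain kainate receptors, had 36 peaks in NSCs, 26 in Neurons and 25 in Astrocytes. Among its 51 merged sites (overlapping peaks of the cell types joined into 1), 15 held a peak of NSCs alone (29.4%, 17.5% to 43.8%), against 16.8% of the sites in all genes of at least 100 kb. Sites of Neurons alone and of Astrocytes alone numbered 8 each. No site was shared by Neurons and Astrocytes without NSCs (0 of 51, exact interval 0 to 6.98%), a pattern held by 7.76% of the sites in long genes. Several such patterns were counted in every member, and the intervals here and for the other members are not corrected for that. Neighbouring sites of a gene are also not independent, so these shares are a description. When each list was reduced to its 116091 top-scoring peaks, Grik2 had 33 peaks in NSCs, 21 in Neurons and 25 in Astrocytes. At a score of at least 87.4 it had 18, 12 and 15 in the same order. At a fold of at least 12.1 it had 19, 16 and 16. The lead of NSCs over Astrocytes was smaller at both of these cuts. A gap of 101 kb without a peak, from 54193091 to 54294191 on chromosome 20, was the widest between sites of any member.

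The strongest sites of Grik2 were shared. At chr20:54377833-54378689 the fold was 45.1 in NSCs, 45.0 in Neurons and 54.7 in Astrocytes, and at chr20:54351244-54352077 it was 38.9, 48.3 and 50.9. Neither site was in a comparison list. The most differing region was weaker: chr20:54439526-54439887 had a peak in NSCs alone, with a fold of 20.1 and a score of 149, and was listed as 21.0-fold higher in NSCs than Neurons and 18.6-fold higher in NSCs than Astrocytes.

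Grik3 had 8 sites, 3 of them with a peak in each cell type. At chr5:143608212-143609061 the fold was 18.4 in NSCs, 50.0 in Neurons and 37.5 in Astrocytes. The comparison lists gave this site as 5.78-fold higher in Neurons than NSCs and 3.58-fold higher in Astrocytes than NSCs. At chr5:143637187-143638334, where NSCs and Astrocytes had their highest fold in the gene, the values were 32.3 in NSCs, 26.9 in Neurons and 43.3 in Astrocytes, and no comparison listed it.

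Grik4, whose product is prominent in CA3 neurons, had the largest share of shared sites. Of its 29 sites, 16 held a peak of all 3 cell types (55.2%, 35.7% to 73.6%), while 24.9% of the sites in genes of at least 100 kb did. Peaks with a score of at least 1000 numbered 1 in NSCs, 6 in Neurons and 4 in Astrocytes, the most of any member in Neurons and Astrocytes, while in NSCs Grid1 had 2. The 6 sites with such a peak lay within 169 kb, which is 58.1% of the extent of its peaks. This stretch held 19 of the 29 sites and 13 of the 16 shared sites. The 6 sites that define it are themselves shared, so the count of shared sites inside is partly set by the choice of the stretch.

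At the strongest of them, chr8:46980075-46981076, the fold was 55.5 in NSCs, 99.3 in Neurons and 89.4 in Astrocytes. It was listed as 7.47-fold higher in Neurons than NSCs and 6.59-fold higher in Astrocytes than NSCs. At chr8:47047657-47048692 the folds were 32.5, 65.9 and 60.4, with 4.63 for Neurons over NSCs and 4.18 for Astrocytes over NSCs. At chr8:47051494-47052274 they were 25.5, 42.0 and 45.6, with 5.78 and 8.07. These are the 3 sites of Grik4 listed as higher in both Neurons and Astrocytes than NSCs, and none of the 3 was listed between Neurons and Astrocytes.

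Grik5, the shortest gene, held one of the strongest sites of the set. At chr1:81911875-81912519 the fold was 56.0 in NSCs, 150.3 in Neurons and 96.3 in Astrocytes. Scores were 1845 in NSCs and 3100, a value that recurs as the top score of the lists, in Neurons and Astrocytes. The comparison lists held this site once, as 3.70-fold higher in Astrocytes than NSCs, and not in a list of Neurons. At the nearby chr1:81913682-81914213 the folds were 49.2, 75.1 and 63.2, with no listing. The other 6 sites of Grik5 had folds of at most 19.3.

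Grid1, the longest gene, had 63 sites, of which 14 were in all cell types (22.2%, 12.7% to 34.5%). At chr16:11314995-11316107 the fold was 101.7 in NSCs, 99.9 in Neurons and 65.5 in Astrocytes. The comparison lists gave this site as 5.49-fold higher in NSCs than Neurons and 6.69-fold higher in NSCs than Astrocytes. The folds over input of NSCs and Neurons were nearly equal there, and why the 2 measures differ was not tested. No region of Grid1 listed as higher in NSCs than Neurons had a score above 74.8, beside a minimum of 50 in the lists. At chr16:11372072-11372620 the fold was 60.8 in NSCs, 169.9 in Neurons and 131.0 in Astrocytes, the highest fold of any member peak, and no comparison listed it. Only the former of the 2 sites was therefore listed as differing. Sites of Neurons alone numbered 15, of NSCs alone 11 and of Astrocytes alone 10.

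**Figure D2:**
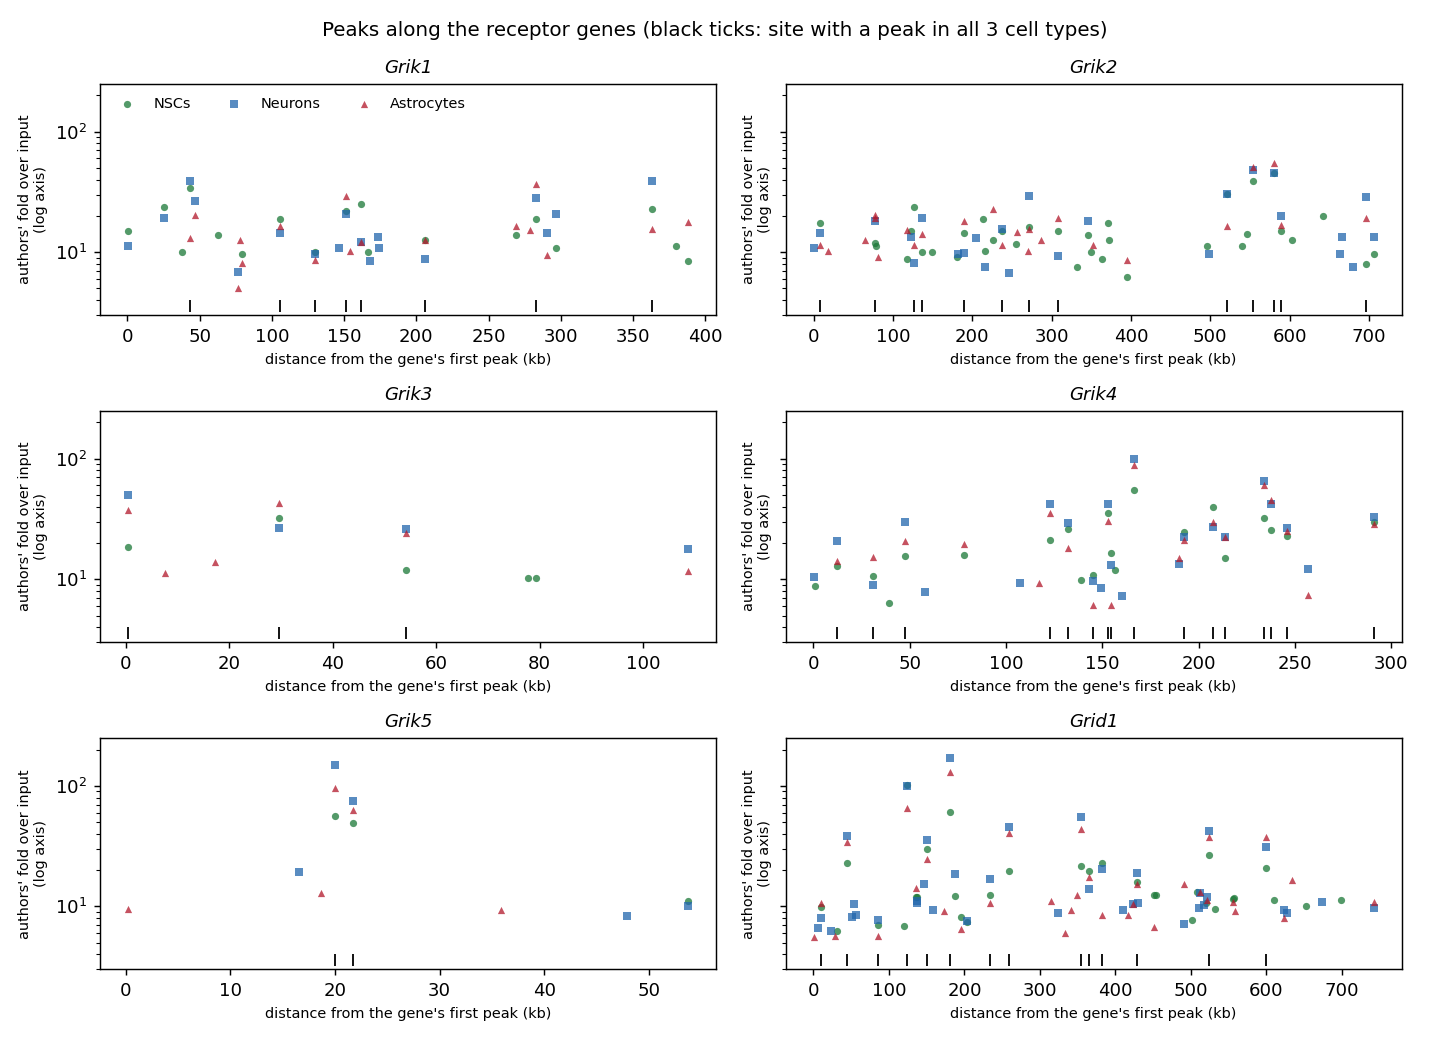
Authors' fold over input (vertical, log axis) of each peak against the distance in kb from the gene's first peak, in the order of the coordinates, for NSCs (circles), Neurons (squares) and Astrocytes (triangles), with black ticks at sites that have a peak in all 3 cell types. The strongest sites of Grik4, Grik5 and Grid1 carry a tick, and Grik2 shows the gap of 101 kb.

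Over the 6 genes the peaks formed 187 sites, and 56 held a peak of all 3 cell types (29.9%, 23.5% to 37.1%). The share was 25.03% over the 83986 sites in all genes and 24.9% over the 39658 sites in genes of at least 100 kb. NSCs alone had 36 sites (19.3%), Neurons alone 34 (18.2%) and Astrocytes alone 27 (14.4%). In long genes those shares were 16.8%, 22.3% and 15.3%.

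Shared sites had the higher scores at the median, but not throughout. The highest score at a site had a median of 350.0 for sites in 3 cell types, 103 for the 34 sites in 2 and 62.4 for the 97 sites in 1, close to the lowest score in the lists. The highest fold had medians of 29.1, 13.7 and 10.2. Sites with more peaks give more chances for a high maximum, which these medians do not correct for. Sharing also rests on each list's minimum score of 50, so a site near that minimum is easily missing from another list. The relation of score and sharing is therefore partly set by the definition, and it was not computed over all genes. The highest score of a site in 1 cell type was 167, while among sites in 3 cell types the highest score at a site went down to 67.9. The peaks of the 6 genes had median folds of 12.5 in NSCs, 13.3 in Neurons and 14.1 in Astrocytes, beside 12.3, 12.1 and 12.4 over all gene peaks.

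**Figure D3:**
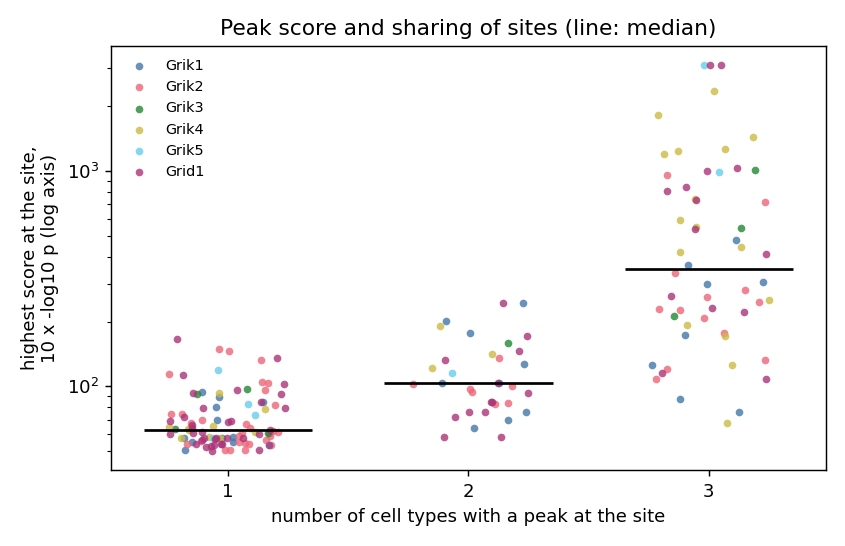
Highest score at each of the 187 sites (10 times the −log10 p, log axis) by the number of cell types with a peak there, coloured by gene, with lines for the medians. The medians rise from 62.4 to 103 and 350.0, and the 3 sites at the recurring top score of 3100 lie in Grik5 and Grid1.

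The authors' comparison lists give the regions called higher in 1 enriched library than in another. Grik5 had no region higher in Neurons than NSCs and the other 5 genes did, beside 26.8% of all genes and 74.7% of genes of at least 100 kb. Regions higher in NSCs than Neurons lay in 4 of the 6 genes, not in Grik1 or Grik5, beside 23.8% and 68.4%. All 6 genes had regions higher in Astrocytes than NSCs, beside 21.4% and 64.4%, and regions higher in NSCs than Astrocytes, beside 25.6% and 72.8%. Regions higher in Astrocytes than Neurons lay in 4 of the 6, again not in Grik1 or Grik5, beside 17.6% and 55.6%. Regions higher in Neurons than Astrocytes lay in 5 of the 6, not in Grik3, beside 29.6% and 77.6%. Among the 5 genes of at least 100 kb, 4 or 5 had a region in each list, and 5 genes are too few to set such counts apart from the shares in long genes.

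Between Neurons and NSCs, 25 member regions were listed as higher in Neurons and 34 as higher in NSCs. The NSC share was 57.6% (44.1% to 70.4%), beside 45.2% over all regions in a gene class. Grik2 had 12 regions higher in NSCs and 4 higher in Neurons, and Grid1 had 14 and 9. Grik4 was nearly even with 6 and 7, Grik3 had 2 and 1, and Grik1 had 0 and 4. The order of the totals turned with the processing: of the regions higher in NSCs, 16 of 34 (47.1%, 29.8% to 64.9%) overlapped no NSC peak over input, beside 31.2% of all gene regions in that list, and with those inside a peak of the higher cell type alone the counts were 18 for NSCs and 22 for Neurons. Grid1 went from 14 to 5 by this step, while Grik2 went from 12 to 11.

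Between Astrocytes and NSCs, 20 regions were listed as higher in Astrocytes and 30 as higher in NSCs. The NSC share of 60.0% (45.2% to 73.6%) was close to the 58.0% over all gene regions. Grik2 again had most of its regions on the NSC side, 11 of 14 (78.6%, 49.2% to 95.3%). Grik4 had 5 higher in Astrocytes and 3 higher in NSCs, Grid1 8 and 10, and Grik1 1 and 4. Both comparisons share the NSC library, so the counts of Grik2 in them are not independent. At the stricter score, Grik2 had 4 regions higher in NSCs and 3 higher in Neurons, and 6 higher in NSCs and 2 higher in Astrocytes. Over the 6 genes the stricter score left 15 regions in each direction between Astrocytes and NSCs.

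Between Astrocytes and Neurons, 18 regions were higher in Astrocytes and 31 in Neurons. The Neuron share was 63.3% (48.3% to 76.6%), beside 70.2% over all gene regions. Grid1 had 16 regions higher in Neurons and 9 higher in Astrocytes, Grik2 6 and 5, and Grik4 3 and 2. All 4 regions of Grik1 and both of Grik5 were higher in Neurons, and both of Grik3 were higher in Astrocytes. These single-gene counts are too small to set apart from the share over all genes.

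**Figure D4:**
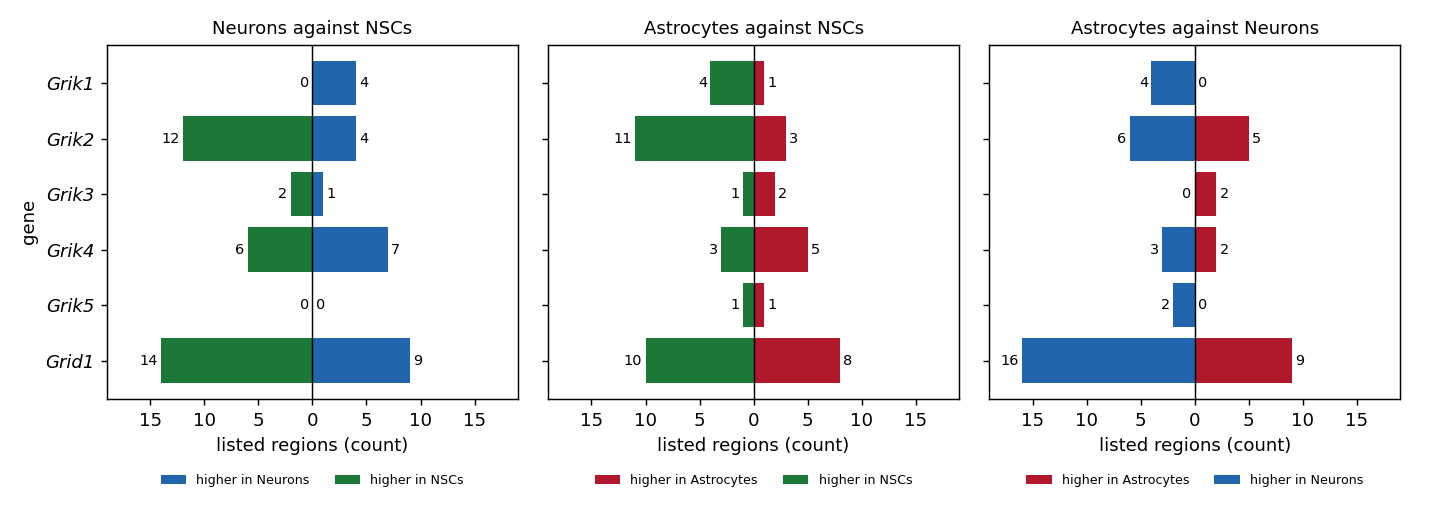
Number of regions the authors list as higher in each cell type, per receptor gene, for the 3 pairs of cell types, with the direction given by the side and the colour. Grik2 leans to NSCs with 12 against 4 beside Neurons and 11 against 3 beside Astrocytes, and Grid1 leans to Neurons over Astrocytes with 16 against 9.

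Read by site, 102 of the 187 sites were in no comparison list (54.5%, 47.1% to 61.8%), beside 55.9% of the sites in genes of at least 100 kb. Of the 56 sites shared by all cell types, 34 were in none (60.7%, 46.8% to 73.5%), beside 75.6% in long genes. Sites listed as higher in NSCs than in both other cell types numbered 11 (5.88%, beside 4.22% in long genes), and 7 of them were in Grik2. At those 7 the listed fold ran from 5.17 to 21.0 over Neurons and from 7.32 to 18.6 over Astrocytes. Sites higher in both Neurons and Astrocytes than NSCs numbered 6 (3.21%, beside 2.10%), with 3 in Grik4 and 1 each in Grik1, Grik3 and Grid1. In Grik1 this was chr11:27872805-27873239, with no NSC peak, at 14.8-fold for Neurons and 12.6-fold for Astrocytes. Sites higher in Neurons than in both others numbered 7 (3.74%, beside 5.47%), of which 5 were in Grid1. Those higher in Astrocytes than in both others numbered 4 (2.14%, beside 2.58%). The exact intervals of these 4 member shares, 2.97% to 10.3%, 1.19% to 6.85%, 1.52% to 7.56% and 0.586% to 5.39%, include the shares in long genes.

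The proteins that work with these receptors were followed in a list of 18 genes. Among them were the Neto auxiliary subunits of kainate receptors, the cerebellins that bind delta receptors, the neurexins that bind cerebellins, and scaffold proteins. Of the 18, 11 had a peak in NSCs, 14 in Neurons and 11 in Astrocytes. Among all genes the shares were 45.6%, 49.1% and 45.8%, and among genes of at least 100 kb 91.3%, 91.9% and 91.2%. The 18 genes span 1.54 to 1631 kb, so neither share is matched to them. Nrxn3, which encodes a presynaptic adhesion protein, had 27 peaks in NSCs, 40 in Neurons and 39 in Astrocytes. Grip1, a scaffold of glutamate receptors, had 12, 12 and 10. Cbln1 and C1ql3, which encode secreted synaptic organisers, Dlg4, which encodes the PSD-95 scaffold, and Klhl17 had none in any cell type, and the longest of these 4 genes, Dlg4, spans 28.4 kb in the reference. Regions higher in Neurons than NSCs lay in 12 of the 18, beside 26.8% of all genes and 74.7% of genes of at least 100 kb. Regions higher in NSCs than Neurons lay in 10, beside 23.8% and 68.4%. For Astrocytes over NSCs the count was 9, beside 21.4% and 64.4%, and for the reverse 10, beside 25.6% and 72.8%. For Astrocytes over Neurons it was 8, beside 17.6% and 55.6%, and for the reverse 10, beside 29.6% and 77.6%.

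Of the 19 other glutamate receptor genes, the AMPA, NMDA and metabotropic receptors, 18 had a peak in NSCs, 16 in Neurons and 17 in Astrocytes. The shares were 45.6%, 49.1% and 45.8% of all genes, and 91.3%, 91.9% and 91.2% of those of at least 100 kb. These 19 genes span 6.32 to 926 kb, so again neither share is matched to them. Grm8 had 56 peaks in NSCs, 61 in Neurons and 45 in Astrocytes, Grin2a had 37, 47 and 34, and Grm7 had 24, 41 and 21. Grin3b, an NMDA receptor subunit, had none. Regions higher in Neurons than NSCs lay in 13 of the 19, beside 26.8% of all genes and 74.7% of genes of at least 100 kb. The reverse held for 12, beside 23.8% and 68.4%. For Astrocytes and NSCs both directions counted 13, beside 21.4% and 64.4% for Astrocytes over NSCs and 25.6% and 72.8% for the reverse. Regions higher in Neurons than Astrocytes lay in 15, beside 29.6% and 77.6%, against 13 for the reverse, beside 17.6% and 55.6%. The median number of peaks per gene was 6 in NSCs and 8 in Neurons and Astrocytes in this group, and 19.5, 20.5 and 19.5 in the kainate and delta receptor genes, with no correction for length.

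For each member, the gene of at least 100 kb with the most similar density of peaks over the 3 cell types was found by the sum of absolute differences in peaks per 100 kb. For Grik1 this was Nox4, with 4.50 in each cell type. Grik2 was nearest to Xkr6, with 5.07 in NSCs and 3.80 in both other cell types. Grik4 was nearest to Adamts2 (4.87, 5.35 and 4.87), Grid1 to Lrrtm4 (4.17, 5.18 and 4.43), Grik3 to Atxn10 (2.43, 1.62 and 3.24) and Grik5 to Kcnk10 (5.15, 8.09 and 8.09). With 3 values per gene such likeness is a description.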

How the data were processed

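Reads were aligned with BWA, per the submitters' processing notes, which give no version; no source used here gives the genome build, annotation or version of the peak caller. The authors deposited a mapping summary with read counts per library and mapped reads as a percent (89.7% to 99.8%). The deposited score of a peak is 10 times the −log10 p of the caller, with a minimum of 50 in every list. The deposited fold is a ratio: enriched library to input in the 3 peak lists, and 1 enriched library to another in the 6 comparison lists. The astrocyte list is over an input that is not among the samples, and 1 row of the summary was not used. Regions of the comparison lists shared coordinates with peaks of the cell type named as higher (31.9% to 84.3% of a list) and never with peaks of the other, which fixed the direction. Coordinates are as deposited, and whether they count from 0 or 1 is not stated.

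Member regions were found by symbol in the authors' gene classes with Python 3.11.15 and pandas 2.3.3. Peaks overlapping by at least 1 bp were merged into sites. Exact Clopper-Pearson intervals came from scipy 1.17.1. Gene names and lengths are from GRCr8 in RefSeq, where 12103 of 12427 named symbols with a peak matched, and a reference gene absent from the authors' annotation counts as without a peak. RefSeq promoter windows matched 5 of the 6 genes, not Grid1. No test was run; counting was tested on simulated data. The members, gene lists and settings were chosen with earlier results of these data known. Genes and peaks named were all members, each member's peak of largest fold per list and its peaks outside introns, the 3 genes of each other list with most peaks and those with none, and the most similar long gene. One gene that this rule names is not reported here. Sites named beyond these were chosen after their values were seen. Alternatives were a stricter score or fold (the median over all lists of a kind), gene bodies only, 50% overlap, regions inside a peak of the higher cell type, and lists of equal length.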

Additional observations from a re-analysis of the deposited data

How the results depend on the processing

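Of 40 alternative values for 10 results, 20 moved by more than the counting interval or 1.5 times, nearly all because fewer regions pass a stricter cut. At a score of at least 87.4, member peaks numbered 63 in NSCs, 64 in Neurons and 67 in Astrocytes, and at a fold of at least 12.1 they numbered 65 in each. The share of sites in all cell types was 38.9% at the stricter score and 38.1% at the stricter fold. In the comparison lists, a score of at least 62.4 left 13 regions higher in Neurons than NSCs, 13 the reverse, 15 higher in Astrocytes than NSCs, 15 the reverse, 9 higher in Astrocytes than Neurons and 14 the reverse. A fold of at least 9.53 left 8 higher in Neurons than NSCs, 16 the reverse, 8 higher in Astrocytes than NSCs, 15 the reverse, 9 higher in Astrocytes than Neurons and 13 the reverse. Inside NSC peaks, 18 regions were higher in NSCs than Neurons; the cause was not tested. The excess of NSC regions over those of Neurons and over those of Astrocytes was therefore lost at the stricter score, and that over Neurons turned inside peaks of the higher cell type. At the stricter fold both excesses remained. Inside peaks of the higher cell type, 22 regions were higher in NSCs than Astrocytes and 17 the reverse, so the settings disagree. Lists of equal length, chosen after seeing the data, gave 109, 103 and 110 peaks. No paired analysis was possible because each cell type has 1 library. Depth was not varied, since the files hold called regions and not reads per region, so a site without a peak may hold enrichment under the caller's limit.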

Other observations

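The Grik2 region listed with the largest fold in favour of NSCs, chr20:54439526-54439887, carried the same score, 149, over input, over Neurons and over Astrocytes, with folds of 20.1, 21.0 and 18.6. Of the 34 member regions higher in NSCs than Neurons, 9 had the coordinates of an NSC peak over input and 4 of those had its score as well. Among the 25 regions higher in Neurons than NSCs, 22 had the coordinates of a Neuron peak and 0 had its score. The whole lists show the same for coordinates: 37.1% of regions higher in NSCs than Neurons and 84.3% of the reverse had coordinates of such a peak. Identical scores were not counted over the whole lists. Of the 31 member regions higher in Neurons than Astrocytes, 9 had the coordinates of a Neuron peak, beside 31.9% of that list. The contrast in coordinates is thus not particular to these genes.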
